A study of Mus musculus with 35 samples.

Results

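The genes described here code for the nuclear-encoded subunits of respiratory complexes II to V and for cytochrome c, measured in cultured adipocytes from mouse inguinal fat. Members were taken by name: every row of the array table with a single gene symbol that was Sdha, Sdhb, Sdhc, Sdhd, Cyc1 or Cycs, or that began with Uqcr, Atp5, Cox4, Cox5, Cox6, Cox7 or Cox8. This gave 44 transcript clusters, the gene-level units of the array, of 17958 in the table, for 39 genes of 15224. They were 4 clusters of complex II, 9 of complex III, 2 of cytochrome c, 14 of complex IV and 15 of complex V. Cycs, Cox7c, Atp5g1, Atp5g2 and Atp5md had 2 clusters each. Signal from a gene and from its near-identical processed copies cannot be told apart on such clusters. A further 12 clusters listed several symbols with a gene of the set among them (Uqcrb, Atp5h, Cox6c, Cox7a2l, Atp5j, Atp5o, Atp5c1 or Atp5l) and were left out, and Cox7a1, Cox6b2 and Cox8c are not analysed here.

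Adipocyte precursors were isolated from inguinal fat of SV129 and C57BL/6J mice and differentiated in culture, and RNA was hybridised to 35 mouse exon arrays. Each strain had 4 arrays of untreated cells at day 3 and 4 of untreated cells at day 7, called control. Cells given 1 µM norepinephrine (NE), the transmitter of sympathetic nerves, from the first day were sampled at day 7 on 5 arrays in each strain. Cells given 1 µM rosiglitazone (ROSI), a drug that activates the nuclear receptor PPARγ, were sampled at day 7 on 5 SV129 and 4 C57BL/6J arrays. All cultures were primary cells grown with serum and insulin, and no genotype other than strain was varied. The deposited values were log2 gene-level signals, with array medians between 8.03 and 8.24. Adipocyte markers were high in every group, with a mean log2 value per array between 10.23 and 11.76. Fibroblast and progenitor markers were high too, between 9.56 and 11.22. In the controls their group means were 10.80 in SV129 and 11.06 in C57BL/6J, against 10.39 and 10.70 for adipocyte markers. Macrophage markers had means per array between 7.90 and 9.09, and markers of skeletal and heart muscle between 7.01 and 7.24. In RNA from a mixed culture, fewer cells of a type and less RNA per cell cannot be told apart.

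Complex II oxidises succinate and passes the electrons to ubiquinone. Complex III moves them from ubiquinone to cytochrome c, a small mobile carrier, and complex IV (cytochrome c oxidase) gives them to oxygen, while complex V (ATP synthase) makes ATP from the proton gradient. White adipocytes hold few mitochondria, brown adipocytes hold many, and several subunits of complex IV exist as common and tissue-restricted isoforms, among them Cox8b, known from heart, skeletal muscle and brown fat.

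Promoter sequence was held for 29 of the 39 genes in the RefSeq table (build GRCm38.p6), as windows from 250 bases before to 50 bases after a transcription start. Windows on both strands were searched for 6 motifs. The NRF1 motif, GCGC and TGCGC with any base between them, was in 7 genes, Atp5g2, Atp5g3, Atp5k, Cox6a1, Sdha, Sdhd and Uqcrc1, or 24.1% of the 29, against 5.19% of the 27025 genes with a window. The ETS/GABP motif CCGGAAGT was in Cox8a, Uqcr11 and Uqcrh, or 10.3% against 4.31%. The ERR motif TCAAGGTCA was in Atp5g3 and Sdhd, or 6.90% against 0.466%, the YY1 motif AAGATGGC in Atp5j2 and Atp5pb against 3.19% of all genes, and the CRE motif TGACGTCA in Cycs and Uqcrfs1 against 2.03%. The DR1 motif, AGGTCA repeated after a single spacer base and read by PPARγ with its partner RXR, was in no window of these genes and in 0.0481% of all genes. The ERR and DR1 motifs share the letters AGGTCA, and no matches overlapped in the windows of the members. These matches describe letters in a window and were not tested as binding sites.

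The windows printed here belong to the isoform pair that differed most in the cultures, Cox8b and Cox8a, and to 4 genes that carry the other motifs found in complex II, cytochrome c and the subunit c genes. Each is written 5′ to 3′ on the minus strand, the strand of the gene, with motif matches in capitals. Cox8b (chr7:140900397-140900696) had none of the 6 motifs, whereas Cox8a (chr19:7217567-7217866) had 2 ETS/GABP matches on the opposite strand, as ACTTCCGG. Sdhd (chr9:50603800-50604099) and Atp5g3 (chr2:73911277-73911576) had NRF1 and, as TGACCTTGA on the opposite strand, ERR. Cycs (chr6:50566520-50566819) had CRE and Sdha (chr13:74350191-74350490) had 3 NRF1 matches.
Cox8b: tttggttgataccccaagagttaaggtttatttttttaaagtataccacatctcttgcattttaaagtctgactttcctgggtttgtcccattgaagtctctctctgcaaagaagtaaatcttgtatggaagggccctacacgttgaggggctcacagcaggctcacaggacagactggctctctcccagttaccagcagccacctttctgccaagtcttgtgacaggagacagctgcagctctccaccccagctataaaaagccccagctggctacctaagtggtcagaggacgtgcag
Cox8a: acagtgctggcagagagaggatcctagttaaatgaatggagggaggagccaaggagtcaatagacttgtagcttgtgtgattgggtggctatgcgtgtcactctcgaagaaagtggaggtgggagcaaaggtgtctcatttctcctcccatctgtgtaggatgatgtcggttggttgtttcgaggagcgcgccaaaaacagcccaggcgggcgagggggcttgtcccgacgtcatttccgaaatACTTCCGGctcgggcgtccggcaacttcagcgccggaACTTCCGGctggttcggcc
Sdhd: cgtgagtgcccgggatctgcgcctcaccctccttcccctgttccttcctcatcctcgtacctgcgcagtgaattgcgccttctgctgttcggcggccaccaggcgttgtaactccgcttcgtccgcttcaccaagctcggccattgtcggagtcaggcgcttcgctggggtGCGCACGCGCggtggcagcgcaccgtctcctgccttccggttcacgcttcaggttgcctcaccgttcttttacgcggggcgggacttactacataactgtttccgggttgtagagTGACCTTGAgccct
Atp5g3: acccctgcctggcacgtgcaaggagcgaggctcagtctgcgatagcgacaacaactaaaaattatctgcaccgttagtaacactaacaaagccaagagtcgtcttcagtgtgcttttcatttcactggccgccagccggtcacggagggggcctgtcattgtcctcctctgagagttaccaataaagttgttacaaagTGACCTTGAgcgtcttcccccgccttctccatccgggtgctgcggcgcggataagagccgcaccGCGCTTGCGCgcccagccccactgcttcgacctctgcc
Cycs: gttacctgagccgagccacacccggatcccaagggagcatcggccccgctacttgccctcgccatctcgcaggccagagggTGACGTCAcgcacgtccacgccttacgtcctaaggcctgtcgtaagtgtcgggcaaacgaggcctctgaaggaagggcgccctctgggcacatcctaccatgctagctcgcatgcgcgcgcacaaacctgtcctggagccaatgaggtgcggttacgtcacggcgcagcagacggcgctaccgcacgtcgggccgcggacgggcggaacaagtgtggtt
Sdha: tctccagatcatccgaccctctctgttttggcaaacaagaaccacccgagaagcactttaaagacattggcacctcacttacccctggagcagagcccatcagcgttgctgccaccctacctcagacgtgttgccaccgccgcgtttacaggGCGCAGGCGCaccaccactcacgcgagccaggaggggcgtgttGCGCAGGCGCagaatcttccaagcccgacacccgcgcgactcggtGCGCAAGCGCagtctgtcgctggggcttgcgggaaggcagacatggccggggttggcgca

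Nearly every member was higher with ROSI. Against the day 7 controls (9 arrays against 8, with strain as a term), 42 of the 44 clusters were called higher, at a p under 0.01 after Benjamini-Hochberg adjustment over all 17958 clusters in limma, where 16.3% of all clusters were. Only Cox4i2 was lower, where 11.6% of all clusters were called lower, and only Cox7b2 was not called. The median log2 change was 0.75 over the members and 0.01 over all clusters. Of all called clusters 58.4% were higher, and 45.7% or 47.3% when the arrays were quantile normalised or centred on their medians, while the members called higher were 41 and 42 and Cox4i2 was called lower under both. Medians by complex ran from 1.26 for cytochrome c and 1.12 for complex II through 0.99 for complex III to 0.68 for complex IV and 0.65 for complex V. Signal levels differed too. Atp5b and Atp5d of complex V and Cox8a of complex IV had means of 13.81, 13.74 and 13.62 over all arrays, against 10.44 and 10.27 for the Cycs clusters. Complex V also held dimmer clusters, such as Atp5e at 8.98. The part of signal level in the order of the complexes was not tested. All 9 ROSI arrays lay above all 8 control arrays for 29 of the 44 members, as for 3.61% of all clusters.

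**Figure D1:**
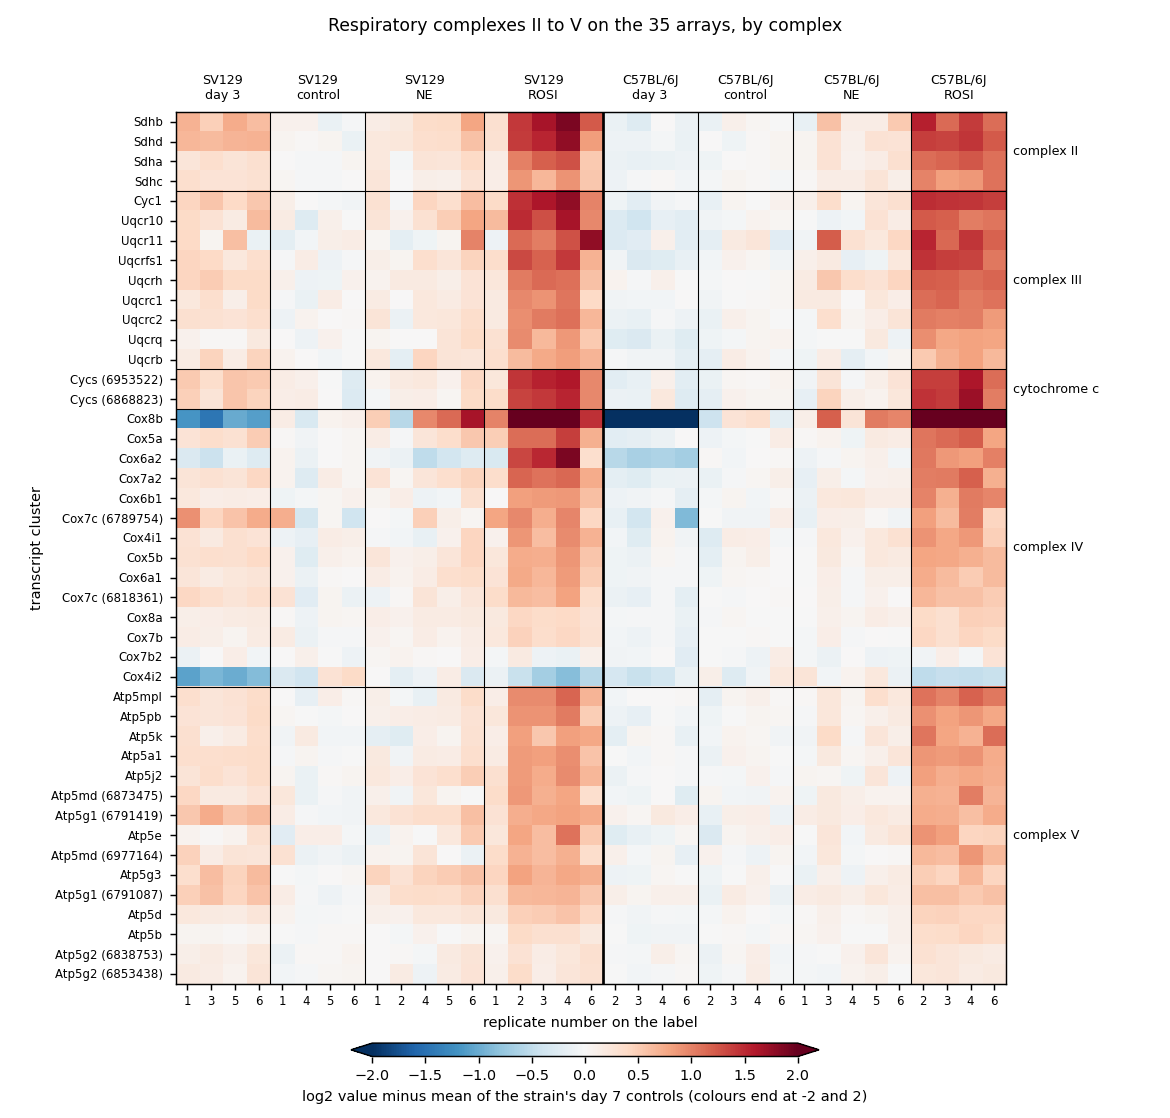
Log2 value of each of the 44 clusters on each of the 35 arrays minus the mean of the same strain's day 7 controls, grouped by complex, with colours ending at −2 and 2. The ROSI columns are high in all but a few rows, SV129 ROSI replicates 1 and 6 are paler than the other 7, and most rows of the SV129 day 3 columns lie above the SV129 controls.

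SV129 ROSI replicates 1 and 6 stood below the rest of their group. Taken against the strain's controls, the median member difference was 0.231 on replicate 1 and 0.56 on replicate 6, and from 0.743 to 0.931 on the other 7 ROSI arrays. Without these 2 arrays the median member change was 0.83, and 42 members were again higher and 1 lower. All remaining ROSI arrays then lay above all control arrays for 39 members, as for 13.5% of all clusters, and below them for 0, as for 7.24%. The 2 arrays had the lowest median member differences with ROSI, so values without them lean towards larger changes. The lowest mean of the adipocyte markers in the SV129 ROSI group was 10.92, and the highest was 11.72. What set these 2 arrays apart was not tested.

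All 4 complex II genes rose, by 0.77 to 1.30. Sdhb, the iron-sulfur subunit, read 10.07, 10.07, 9.85 and 9.96 on the SV129 control arrays and 10.31, 11.41, 11.64, 11.87 and 11.22 on the SV129 ROSI arrays. In C57BL/6J it read 10.15, 10.38, 10.33 and 10.28 in controls and 11.83, 11.41, 11.69 and 11.41 with ROSI. The groups did not overlap within either strain, and the change was 1.30 (SE 0.15, 2.46-fold, adjusted p = 5.1e-06). Sdhd, a membrane anchor of the complex, rose by 1.25 (SE 0.15, adjusted p = 4.7e-06). Sdhc, the other anchor, changed least, from 11.19–11.26 in SV129 and 11.26–11.36 in C57BL/6J controls to 11.35–12.11 and 12.12–12.39 with ROSI, a rise of 0.77 (SE 0.09, adjusted p = 5.2e-06).

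All 9 complex III clusters rose, by 0.66 to 1.33. The largest change was that of Cyc1, the cytochrome c1 subunit that hands electrons to cytochrome c. It read 11.25, 11.14, 11.10 and 11.06 in SV129 controls and 11.52, 12.61, 12.75, 12.91 and 12.13 with ROSI, and 11.13, 11.34, 11.27 and 11.36 against 12.75, 12.72, 12.71 and 12.66 in C57BL/6J. The 4 C57BL/6J ROSI arrays lay close together, while the SV129 ROSI arrays were spread widely, and none overlapped the controls. The change was 1.33 (SE 0.14, 2.52-fold, adjusted p = 2.3e-06). Uqcrb, a small subunit at the ubiquinone site, changed least (0.66, SE 0.06, adjusted p = 1.4e-06). Uqcrh, the hinge subunit that binds Cyc1, rose by 0.99 (SE 0.11, adjusted p = 2.9e-06).

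Cytochrome c itself rose on both clusters of Cycs. The cluster 6953522 read 10.16, 10.12, 10.01 and 9.75 in SV129 controls and 10.23, 11.44, 11.55, 11.60 and 10.97 with ROSI, and 9.94, 10.11, 10.08 and 10.13 against 11.45, 11.45, 11.68 and 11.19 in C57BL/6J. Replicate 1 of SV129 ROSI exceeded the highest control only narrowly, and all other ROSI arrays were well clear of the controls. The change was 1.26 (SE 0.15, adjusted p = 6.9e-06) on this cluster and 1.25 (SE 0.14, adjusted p = 3.6e-06) on cluster 6868823.

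Complex IV held both extremes of the set. Its 9 genes for common subunits, among them Cox4i1, Cox6a1, Cox7b and Cox8a, all rose, by 0.37 to 1.01 (for Cox7c, the brighter of its clusters). Of the 4 tissue isoforms, Cox8b and Cox6a2 rose, Cox4i2 fell and Cox7b2 was not called.

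Cox8b, the isoform known from muscle and brown fat, had the largest change of any member. It read 9.51, 9.05, 9.43 and 9.46 in SV129 controls and 10.35, 11.60, 12.10, 12.57 and 10.83 with ROSI. In C57BL/6J it read 9.41, 10.09, 10.16 and 9.62 in controls and 12.61, 12.62, 12.48 and 12.76 with ROSI. Every ROSI array was above every control array, and the change of 2.45 (SE 0.25, 5.45-fold, adjusted p = 1.6e-06) ranked above 99.9% of all clusters. Cox8a, its common counterpart, went from 13.35–13.51 in SV129 and 13.48–13.55 in C57BL/6J controls to 13.65–13.87 and 13.83–13.99, a rise of 0.37 (SE 0.04, adjusted p = 3e-06). The change of Cox8b exceeded that of Cox8a by 2.08 (exact two-sided permutation test within strains, p = 0.000227, 0.00109 adjusted over the 24 pair tests). Cox8a lay near the top of the deposited values, which end at 14.42, and the part of this in its smaller change was not tested.

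Cox4i2, the isoform best known from lung, was the member that fell with ROSI. In SV129 it read 8.83, 8.74, 9.42 and 9.50 on control replicates 1, 4, 5 and 6, and 9.002, 8.67, 8.44, 8.27 and 8.57 with ROSI. In C57BL/6J it read 8.61, 8.24, 8.42 and 8.70 in controls and 7.98, 8.03, 8.02 and 8.05 with ROSI. The groups did not overlap in C57BL/6J but did in SV129, where control replicates 5 and 6 stood above all other arrays of the series. The change was −0.50 (SE 0.11, 1.42-fold lower, adjusted p = 0.0017), and −0.36 without these 2 arrays, with an adjusted p of 0.012 by limma, above the threshold. Its common counterpart Cox4i1, the regulatory subunit of most tissues, rose by 0.70 (SE 0.11, adjusted p = 5.7e-05), and the changes of the pair differed by −1.20 (exact p = 0.00034).

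Cox6a2, the heart and skeletal muscle form of Cox6a, read 9.32, 9.13, 9.26 and 9.29 in SV129 controls and 8.94, 10.59, 10.76, 11.13 and 9.58 with ROSI, and 9.59, 9.52, 9.59 and 9.60 against 10.63, 10.43, 10.39 and 10.58 in C57BL/6J. ROSI replicate 1 of SV129 was below its controls, and the other 8 ROSI arrays were above the controls of their strain. The change was 0.94 (SE 0.22, 1.92-fold, adjusted p = 0.002). Cox6a1, the common form, rose by 0.62 (SE 0.07, adjusted p = 2.3e-06). The difference of 0.32 within the pair did not pass (exact p = 0.0963, 0.128 adjusted). It was 0.54 without SV129 ROSI replicates 1 and 6. On these 2 arrays Cox6a2 minus Cox6a1 lay below the mean of the strain's controls (−0.59 and −0.16), and on no other ROSI array. Leaving them out could therefore only raise the difference, and is not a test of it. Of 13 markers of skeletal and heart muscle, limma called none with ROSI in either direction, and 1 was higher and 1 lower at an unadjusted p under 0.05.

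**Figure D2:**
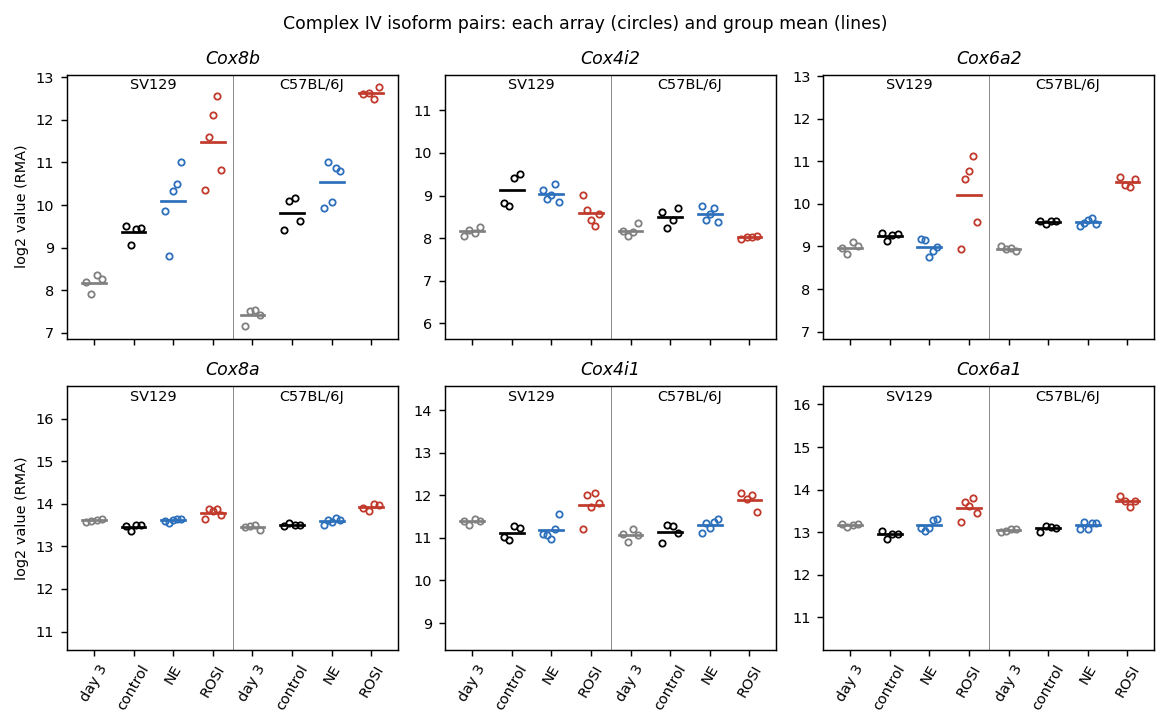
Log2 value on each array (circles) and the mean of each of the 8 strain by treatment groups (lines) for Cox8b and Cox8a, Cox4i2 and Cox4i1, and Cox6a2 and Cox6a1, with every panel spanning the same range of log2 units. Cox8b reads 7.17–8.35 at day 3, 9.05–10.16 in the day 7 controls and 10.35–12.76 with ROSI. Cox8a reads 13.38–13.64, 13.35–13.55 and 13.65–13.99 in the same groups.

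Cox7b2, the testis isoform of Cox7b, had a mean log2 value of 3.51, at the 1.49th percentile of clusters, and ranged only from 3.31 to 3.81 over all 35 arrays. Its ROSI change was 0.04 (SE 0.06, adjusted p = 0.68). Cox7b rose by 0.37 (SE 0.04, adjusted p = 5e-06), the smallest rise among the common subunits together with that of Cox8a.

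All 15 complex V clusters rose, over the narrow range of 0.22 to 0.92. Atp5mpl, a small membrane subunit, was at the top: it read 9.92, 9.74, 10.04 and 9.93 in SV129 controls and 10.04, 10.85, 10.86, 11.08 and 10.58 with ROSI, and 9.74, 9.96, 10.01 and 9.94 against 11.00, 10.90, 11.09 and 10.96 in C57BL/6J. Replicate 1 of SV129 ROSI lay level with the highest control, and the other 8 ROSI arrays lay above all controls. The change was 0.92 (SE 0.11, adjusted p = 6.3e-06). Atp5b, the catalytic beta subunit, rose by 0.31.

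Atp5g1, Atp5g2 and Atp5g3 code for the same mature subunit c of the proton-driven ring, behind different import sequences, and did not move alike. Atp5g3 rose by 0.60 (SE 0.05, adjusted p = 9.5e-07) and Atp5g1 by 0.57 and 0.68 on its 2 clusters. Atp5g2 on cluster 6838753 read 11.88, 12.02, 12.03 and 12.07 in SV129 controls and 12.09, 12.29, 12.15, 12.23 and 12.32 with ROSI, and 11.91, 12.07, 12.17 and 11.97 against 12.34, 12.28, 12.23 and 12.19 in C57BL/6J. The arrays did not overlap within a strain, but the gap was small, and the rise was 0.22 (SE 0.05, adjusted p = 0.00084). With quantile normalised arrays it was 0.13 and was not called (adjusted p = 0.0153 by limma). The Atp5g2 change was below that of Atp5g3 by −0.38 (exact p = 0.000113, the smallest the design allows), while Atp5g1 and Atp5g3 differed by 0.09 (exact p = 0.199).

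**Figure D3:**
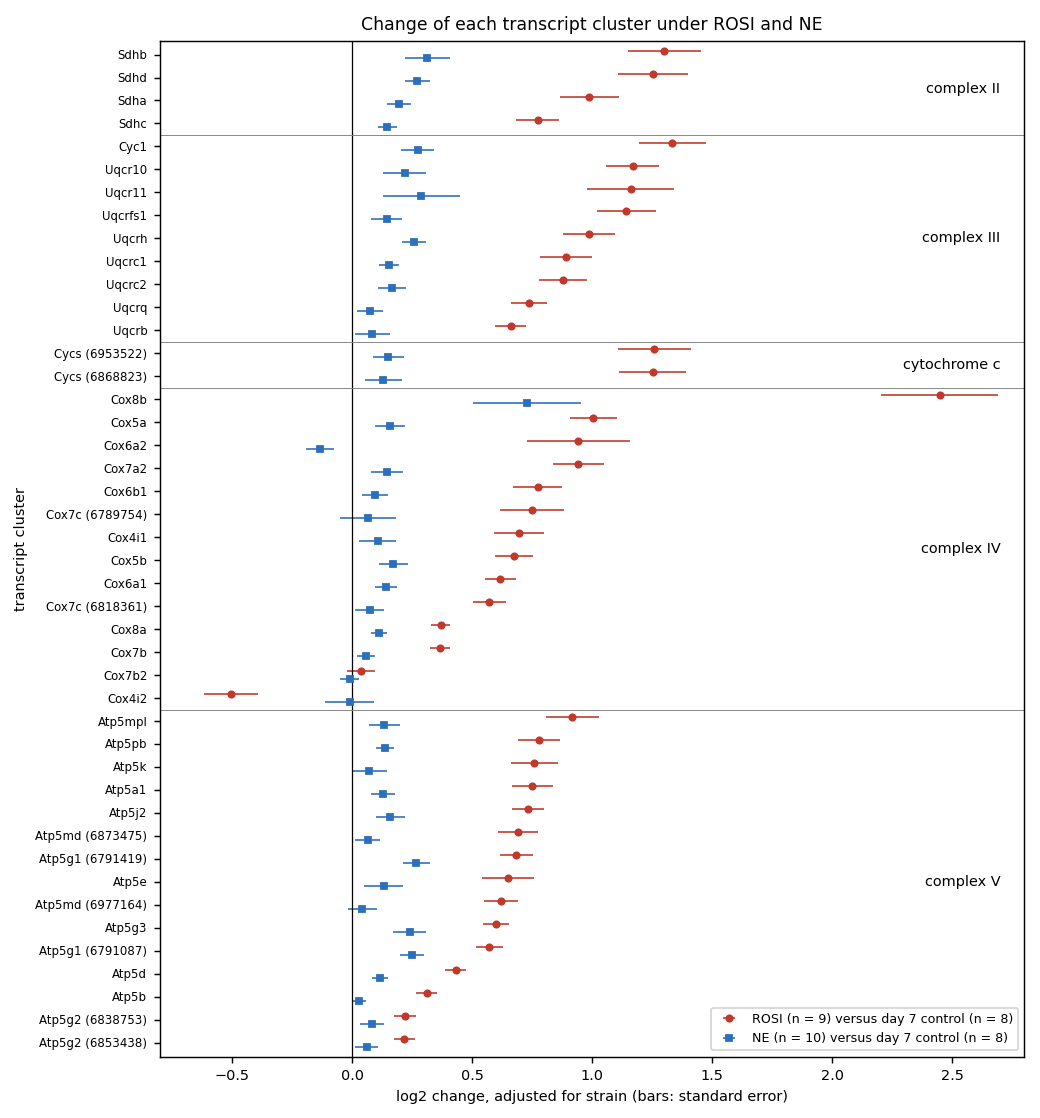
Log2 change of each of the 44 clusters with ROSI (9 arrays) and with NE (10 arrays) against the day 7 control (8 arrays), by complex, with bars of 1 SE. The ROSI changes lie between −0.50 and 2.45 and the NE changes between −0.13 and 0.73.

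Most genes that build or regulate the complexes moved the same way. Of 32 measured assembly and regulatory factors, 27 were higher with ROSI and none was called lower (median change 0.62, with 30 higher and 1 lower at an unadjusted p under 0.05). They included Atpaf2 (1.36) and Tmem70 (1.10), which help to assemble complex V, Uqcc1 (0.98), which does so for complex III, and Cox10 (0.93), which makes the heme of complex IV. Of 15 regulators of mitochondrial biogenesis 9 were higher, led by the coactivators Ppargc1a (1.85) and Ppargc1b (1.15) and by the nuclear receptor Esrra (0.80). The other 6 were not called, and the median change of this list was 0.34, with 10 higher and 2 lower at an unadjusted p under 0.05. All 18 measured mitochondrial genes outside the chain were higher (median 0.54), such as the cristae protein Chchd3 (1.11) and citrate synthase, Cs (0.91).

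Most markers of adipocytes and some of thermogenic fat were also higher with ROSI. Of 8 adipocyte markers 7 were higher with ROSI (median change 1.06, Cidec 3.37, Fabp4 1.31), and their mean level per array was 10.92–11.72 on the SV129 ROSI arrays against 10.23–10.58 on the controls, and 11.67–11.76 against 10.54–10.91 in C57BL/6J. Of 10 thermogenic markers 6 were higher, including the lipid elongase Elovl3 (3.27) and the uncoupling protein Ucp1 (1.28), and Dio2 was lower (−0.71). The other 3 were not called, and the median change was 0.36. This list overlaps in part with that of the biogenesis regulators. Of 8 fibroblast and progenitor markers 5 were lower (median −0.65), where 11.6% of all clusters were. Of 8 macrophage and 7 endothelial markers 1 each was called lower, with medians of −0.06 and 0.13. At an unadjusted p under 0.05, 3 macrophage markers were lower and 0 higher, and 3 endothelial markers were higher and 1 lower. A list of 12 mural cell markers, chosen after the values were seen, had 4 higher and 5 lower. The contribution of cell composition in the changes of the members was not tested.

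Members were higher with ROSI in each strain taken alone. The median change was 0.67 in SV129, with 39 members called higher and none lower where 7.14% and 3.78% of all clusters were, and 0.84 in C57BL/6J, with 38 called higher and none lower where 12% and 7.97% were. At an unadjusted p under 0.05, 42 members were higher and 1 lower in each strain. The difference of the changes (SV129 minus C57BL/6J) had a median of −0.11, and limma called none of the 44 in either direction, none at an unadjusted p under 0.05, where 8.97% of all clusters had one and 0% and 0.00557% of all clusters were called higher and lower. When single arrays were left out the median ran from −0.19 (without SV129 ROSI replicate 4) to −0.0075 (without replicate 1), and it was 0.04 without SV129 ROSI replicates 1 and 6. For Cox8b the difference was −0.67 with an SE of 0.48 (adjusted p = 0.68), and −0.075 without SV129 ROSI replicates 1 and 6 (adjusted p = 0.974 by limma).

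Norepinephrine left the members close to control. None of the 44 was called by limma in either direction (10 arrays against 8), as for 0% of all clusters, and the lowest adjusted p was 0.0556. At an unadjusted p under 0.05 there were 24 members higher and 1 lower, where 7.11% and 4.32% of all clusters were. The differences leaned upwards: 41 of 44 were positive, with a median of 0.14 against 0.01 over all clusters. By complex the medians were 0.23 for II, 0.17 for III, 0.14 for cytochrome c, 0.10 for IV and 0.13 for V. The median member difference per array ran from −0.017 to 0.353 with NE and from −0.079 to 0.044 in controls. In the same comparison limma called none of the adipocyte or macrophage markers, but 6 of 8 adipocyte markers were higher and 7 of 8 macrophage markers lower at an unadjusted p under 0.05, and their contribution to these small differences was not tested.

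Cox8b had the largest NE difference of any member. In SV129 it read 9.86, 8.81, 10.33, 10.50 and 11.00 with NE against 9.05 to 9.51 in controls, and in C57BL/6J 9.93, 11.01, 10.08, 10.86 and 10.79 against 9.41 to 10.16. In SV129 replicate 2 lay below all controls and the other 4 arrays above them, and in C57BL/6J 3 of 5 arrays were above all controls. The difference was 0.73 (SE 0.23, 1.66-fold, adjusted p = 0.17). It exceeded that of Cox8a by 0.61 (exact p = 0.0208, 0.0333 adjusted), which rose above 0.05 adjusted when any of 9 of the 18 arrays was left out, with values of 0.51 to 0.76 over all 18. Cox6a2 went the other way relative to Cox6a1, by −0.28 (exact p = 0.0055, 0.0101 adjusted). It read 9.18, 9.14, 8.74, 8.89 and 8.99 with NE in SV129, against 9.13 to 9.32 in controls, and 9.48 to 9.67 in C57BL/6J, against 9.52 to 9.60.

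Within SV129 alone, Atp5g3 was the only member called with NE, where 0.0334% of all clusters were called higher and 0.039% lower. At an unadjusted p under 0.05 by limma, 23 members were higher and 1 lower in SV129. Atp5g3 was among those higher. In SV129 it read 11.96, 11.93, 11.98 and 12.001 in controls and 12.41, 12.25, 12.41, 12.47 and 12.54 with NE, without overlap (0.45, SE 0.07, adjusted p = 0.0053). In C57BL/6J it read 12.17 to 12.34 in controls and 12.12 to 12.41 with NE, and no member was called by limma, with 9 higher at an unadjusted p under 0.05. The difference between strains was 0.43 (SE 0.09, adjusted p = 0.22) and was not called, nor was any other member's, where 0% of all clusters were called and 3 members had an unadjusted p under 0.05.

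ROSI arrays were also set against NE arrays. With 9 against 10 arrays, 40 of the 44 were higher with ROSI, where 15.8% of all clusters were, and Cox4i2 was lower by −0.49 (SE 0.08, adjusted p = 7.7e-05), where 12% were. The Atp5g2 clusters and Cox7b2 were not called. All ROSI arrays lay above all NE arrays only for Cox7b, the Atp5md clusters and Cox7c on cluster 6818361, as for 0.267% of all clusters. The median difference was 0.63, with Cox8b at 1.72 (SE 0.29), the Cycs clusters at 1.12 and 1.10, and Cox6a2 at 1.08 (SE 0.20). This comparison shares its ROSI arrays with the one against control.

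In the untreated cells, the tissue isoforms Cox8b, Cox4i2 and Cox6a2 of complex IV rose from day 3 to day 7, Cox7b2 was not called, and no common subunit of that complex was called. Over both strains (8 arrays against 8) 3 members were higher and 3 clusters were lower, where 9.69% and 5.6% of all clusters were, and the median change was −0.10. Cox8b read 8.19, 7.91, 8.35 and 8.25 at day 3 in SV129 and 7.17, 7.50, 7.55 and 7.42 in C57BL/6J, against 9.05 to 9.51 and 9.41 to 10.16 at day 7. All day 7 arrays were above all day 3 arrays, and the change was 1.80 (SE 0.19, 3.47-fold, adjusted p = 3.9e-06). Cox4i2 rose from 8.05–8.26 in SV129 and 8.05–8.36 in C57BL/6J to 8.74–9.50 and 8.24–8.70, by 0.64 (SE 0.13, adjusted p = 0.0016). The days overlapped in C57BL/6J but not in SV129, where control replicates 5 and 6 stood highest. Cox6a2 rose by 0.45 (SE 0.06, adjusted p = 3.6e-05), from 8.82–9.11 and 8.90–9.02 to 9.13–9.32 and 9.52–9.60. With all 35 arrays in a single model its adjusted p was 0.0565 by limma, above the threshold. The changes exceeded those of Cox8a, Cox4i1 and Cox6a1 by 1.84, 0.74 and 0.54, with exact p-values of 0.000408, 0.0041 and 0.000408.

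The clusters that fell were both of Atp5g1 (−0.36, SE 0.08, adjusted p = 0.003, and −0.30, SE 0.07, adjusted p = 0.0043) and Uqcrh (−0.23, SE 0.06, adjusted p = 0.0094). Leaving out 1 array left 1 to 3 members called lower, with 1 left without SV129 day 3 replicate 1, 3 or 6 or SV129 control replicate 6, and none was left without SV129 control replicates 5 and 6 together. The call for Uqcrh was lost without 12 of the 16 single arrays (adjusted p from 0.0101 to 0.0215 by limma), each of the 8 SV129 arrays among them, and also with array weights (0.0123), without the strain term (0.0613) and with all 35 arrays in a single model (0.0403). In the same comparison 7 of 8 macrophage markers were called higher.

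The change over time was called different between the strains for 20 of the 44 members, and for 1 when all 35 arrays were fitted in a single model. This comparison was chosen after the values were seen. From day 3 to day 7 the median member change was −0.29 in SV129, where limma called 3 members higher and 26 lower against 10.6% and 7.65% of all clusters, and 0.09 in C57BL/6J, where 2 were higher and none was lower against 4.37% and 3.01%. The difference of these changes was lower in SV129 for 20 of the 44 by limma, where 2.78% of all clusters were, and higher for none, where 1.53% were, and 39 members were lower and 1 higher at an unadjusted p under 0.05. All 4 complex II genes were among the 20, with 5 of 9 clusters of complex III, 1 of 2 of cytochrome c, 3 of 14 of complex IV and 7 of 15 of complex V.

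Sdhd shows the pattern. In SV129 it read 11.06, 11.02, 11.08 and 11.09 at day 3 and 10.44, 10.42, 10.45 and 10.26 at day 7, and in C57BL/6J 10.52, 10.51, 10.57 and 10.49 at day 3 and 10.62, 10.54, 10.64 and 10.68 at day 7. The SV129 arrays at day 3 were above all untreated arrays of the other groups, and the difference of the changes was −0.76 (SE 0.07, adjusted p = 8.9e-06). For Sdhb, at 10.68, 10.47, 10.73 and 10.61 on the SV129 day 3 arrays and 10.16, 10.03, 10.29 and 10.16 on those of C57BL/6J, the difference was also −0.76 (SE 0.10, adjusted p = 0.00025). Cox8b, which rose in both strains, rose by less in SV129 (difference −1.22, SE 0.22, adjusted p = 0.0022). Cox4i2 was the only member with a positive difference (0.64), and it was not called.

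The strains stood apart at day 3, in a test that shares its arrays with the comparison of the day effect. The SV129 value was then higher for 43 of 44 members, with a median difference of 0.30, and 24 were called higher and none lower, where 4.51% and 3.75% of all clusters were and 38 members were higher at an unadjusted p under 0.05. All 4 SV129 day 3 arrays were above all 4 C57BL/6J day 3 arrays for 34 members, as for 10.5% of all clusters, and above all SV129 controls for 29, as for 11.5%. In the day 7 controls 8 of 44 differences were positive, with a median of −0.083, and limma called none, as for 0% of all clusters, with 1 higher and 12 lower at an unadjusted p under 0.05. With NE 21 differences were positive and Cox6a2 was called lower (−0.58, SE 0.08, adjusted p = 0.0016 by limma), where 0.562% of all clusters were called higher and 1.94% lower, and with ROSI 1 was positive and none was called, where 0% and 0.0445% were, with 1 higher and 4 lower at an unadjusted p under 0.05. Over both untreated days together the median difference was 0.10, and none of the 44 was called, where 0.078% and 0.407% of all clusters were called higher and lower, with 12 members higher and 1 lower at an unadjusted p under 0.05.

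Adipocyte markers moved with this pattern. Their mean level was 10.89–11.01 on the SV129 day 3 arrays, 10.23–10.58 on the SV129 controls, 10.39–10.51 on the C57BL/6J day 3 arrays and 10.54–10.91 on the C57BL/6J controls. In the comparison of the day effect between strains, 6 of 8 were called lower (median −0.87). In that comparison 5 of 18 mitochondrial genes outside the chain and 5 of 32 assembly factors were called lower, and of the 8 macrophage markers none was called, with 3 higher at an unadjusted p under 0.05. The contribution of the adipocyte markers' difference in that of the members was not tested. The count of 20 fell to 13 when any of 6 single arrays was left out (C57BL/6J day 3 replicates 2, 3 and 6, C57BL/6J control replicates 3 and 4, SV129 day 3 replicate 6), to 11 without SV129 control replicates 5 and 6, and to 1 when all 35 arrays were fitted in a single model.

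**Figure D4:**
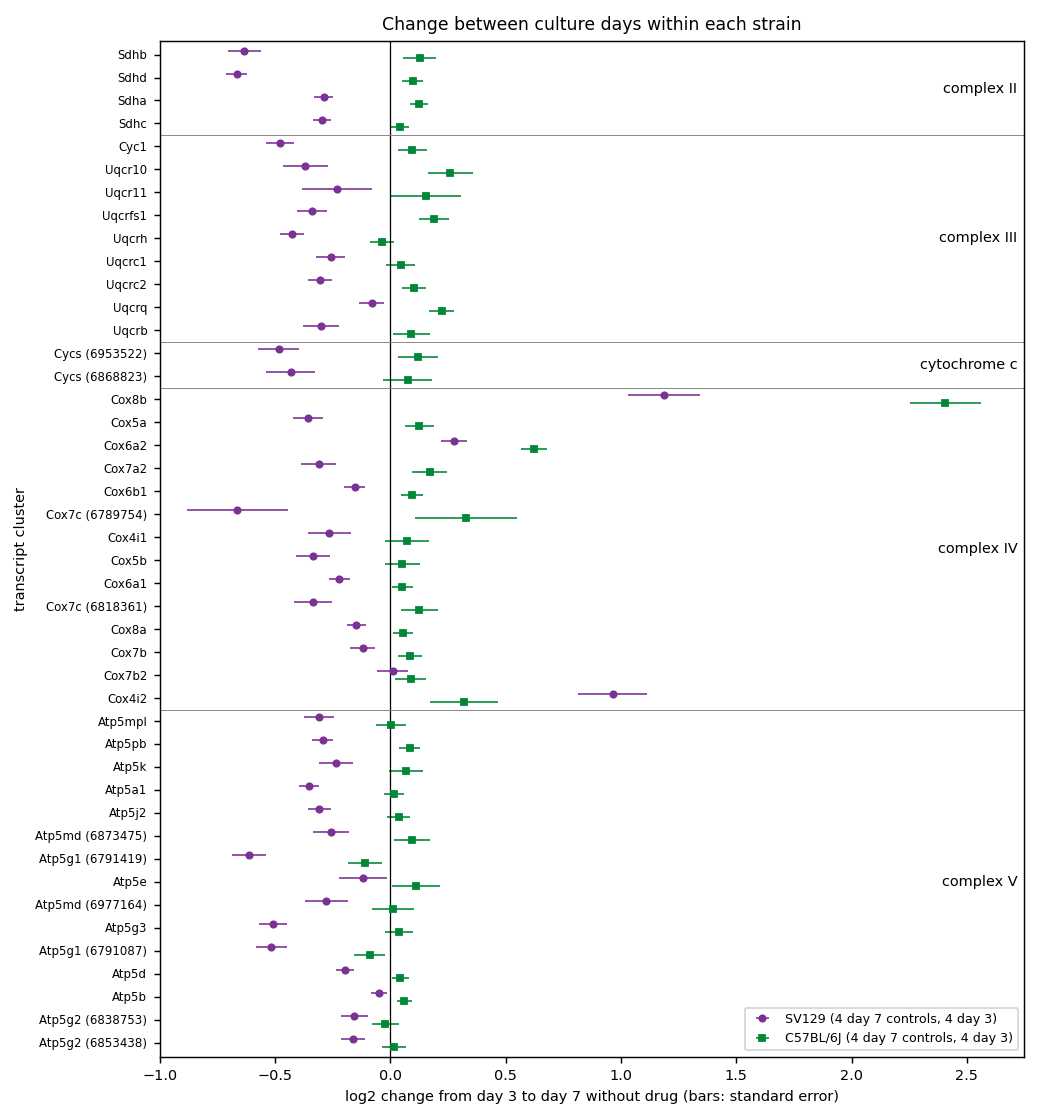
Log2 change from day 3 to day 7 of each of the 44 clusters in untreated SV129 and C57BL/6J cells (4 arrays a group), by complex, with bars of 1 SE. Most SV129 points lie below 0 and most C57BL/6J points at or above it, with the Cox8b change positive in both.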

How the data were processed

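RNA from 35 samples was hybridised to mouse exon arrays. The deposited values were gene-level signals on the log2 scale, summarised and normalised by the authors with RMA in Affymetrix Power Tools, as the submitters' processing notes name them, with versions not given in the sources used here. They were used as deposited, with 0 sample columns unused and 0 pairs of identical arrays. The platform annotation gave 15621 clusters a single gene symbol, 1370 several and 967 none. The members and the other gene lists were chosen with earlier results of these data known.

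Each comparison was fitted across all 17958 clusters with lmFit and eBayes in limma 3.58.1 (R 4.3.3), with strain as a term (culture day for the comparison of strains), and p-values were adjusted by Benjamini-Hochberg, with a threshold of 0.01. Differences between isoforms were tested by exact two-sided permutation within strains (numpy 2.4.6, Python 3.11.15) and adjusted over 24 tests, with a threshold of 0.05. The fit was tested on simulated data, and figures were drawn with matplotlib 3.10.9. The labels do not say whether arrays of a group came from separate cultures or mice, so p-values measure the spread between these samples, which may be technical, and the number of arrays limits the precision. Named genes were the isoform pairs, the extremes of each complex and up to 3 called members a direction in each comparison. Alternatives were another threshold, scaling, array weights, an intensity trend, a filter on dim clusters, no strain term, a model of all arrays, a replicate block and leaving out arrays. The comparison of the day effect between strains was added after the values were seen. Calls within each strain, and calls of the strain difference within each condition, were also outside the planned comparisons.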

Additional observations from a re-analysis of the deposited data

Results flagged for a closer look

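Dixon's test at 95% was applied to 184 groups of 4 or 5 arrays, over 22 clusters and the member median, and chance alone marks about 1 group in 20. It marked 10 groups, each for a single array that stood away from the rest of its group.

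In the controls, Sdhd read 10.26 on SV129 replicate 6 (the others 10.42 to 10.45) and Cox8b read 9.05 on SV129 replicate 4 (the others 9.43 to 9.51). In C57BL/6J controls, Cox6a2 read 9.52 on replicate 3 (the others 9.59 to 9.60) and Cycs on cluster 6868823 read 9.70 on replicate 2 (the others 9.93 to 9.96). The median member difference of that C57BL/6J control replicate 2 was −0.0788, against 0.0203 to 0.0385 on the others. At day 3, Cycs on cluster 6953522 read 10.35 on SV129 replicate 3 (the others 10.52 to 10.56) and Atp5mpl read 9.86 on C57BL/6J replicate 2 (the others 9.92 to 9.93). With NE, Cox7b read 12.97 on C57BL/6J replicate 3 (the others 12.80 to 12.85). With ROSI, Atp5g1 on cluster 6791419 read 12.56 on SV129 replicate 1 (the others 12.99 to 13.06) and 13.06 on C57BL/6J replicate 4 (the others 13.18 to 13.20).

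For 20 clusters the change from day 3 to day 7 differed between the strains by limma, and the difference (SV129 minus C57BL/6J) was negative in each. In complex II it was −0.41 for Sdha, −0.76 for Sdhb, −0.34 for Sdhc and −0.76 for Sdhd. In complex III it was −0.58 for Cyc1, −0.63 for Uqcr10, −0.41 for Uqcrc2, −0.53 for Uqcrfs1 and −0.39 for Uqcrh, and for Cycs (cluster 6953522) it was −0.61. In complex IV it was −0.48 for Cox5a, −0.48 for Cox7a2 and −1.22 for Cox8b. In complex V it was −0.37 for Atp5a1, −0.24 for Atp5d, −0.50 and −0.43 for the clusters of Atp5g1, −0.55 for Atp5g3, −0.34 for Atp5j2 and −0.38 for Atp5pb.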

How the results depend on the processing

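No call or called value changed sign under any alternative run. For the members' median changes, member counts, named members and isoform differences, 5702 of 5848 recomputed values kept their call or stayed near the reported one. The members higher with ROSI stayed at 42 when any single array was left out, with a median of 0.72 to 0.80, and none was called with NE. Cox4i2 was no longer called lower with ROSI or against NE (0 members lower) without the strain term, nor with ROSI without SV129 control replicates 5 and 6. The 3 clusters lower at day 7 became 6 at a threshold of 0.05, 0 without SV129 control replicates 5 and 6, and 1 to 3 when single arrays were left out. For SV129 against C57BL/6J in untreated cells, 2 members were higher at a threshold of 0.05 or with array weights, and 0 to 1 when single arrays were left out. The 20 members with a lower day effect in SV129 became 31 at a threshold of 0.05, 1 with all 35 arrays in a single model, 11 without SV129 control replicates 5 and 6, and 13 to 26 when single arrays were left out, and 1 member was higher with array weights. Taking the mean over a gene's clusters moved the Atp5g1 minus Atp5g3 difference at day 7 to −0.097 (adjusted p = 0.0755, exact test) and the Atp5g2 minus Atp5g3 difference with NE to −0.17 (adjusted p = 0.0469, exact test). Without SV129 ROSI replicates 1 and 6 the Cox6a2 minus Cox6a1 difference with ROSI was 0.54, and it ranged from 0.24 to 0.44 when single arrays were left out. The same range was 0.51 to 0.76 for Cox8b minus Cox8a and −0.19 to −0.13 for Atp5g2 minus Atp5g3 with NE. The median strain difference of the ROSI change, −0.11, lay between −0.19 and −0.0075 when single arrays were left out, the ends being without SV129 ROSI replicates 4 and 1, and between −0.13 and 0.04 over the other alternatives. The cause of these moves was not tested, other than that fewer arrays entered some fits. The share of all called clusters that were higher moved from 63.4% to 52.7% (quantile normalised) or 46.6% (median centred) for day 7 against day 3, and from 35.5% to 50.5% (median centred) for its difference between strains. The labels do not say whether replicate numbers pair the arrays, and deviations within groups of 4 or 5 arrays cannot exclude it. Of 7 same-numbered pairs of ROSI and control arrays, 1 had deviations that correlated above 0.1, as did 6 of 29 other pairs. For NE and control it was 2 of 7, and 14 of 33 other pairs. The same-numbered control was the best match for 1 of 7 ROSI and 3 of 7 NE arrays. With the numbers as a replicate block the ROSI counts were 42 and 1, the NE counts 0, the day 7 counts 3 and 3, and the day by strain count 22.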
